A study of Mus musculus with 13 samples.

Results

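Peg10 and 7 genes that lie near it on mouse chromosome 6 (Sgce, Ppp1r9a, Pon2, Pon3, Asb4, Calcr and Tfpi2) were followed in cells stalled on the way to pluripotency, with and without the histone demethylase gene Kdm3b. The 8 genes are 8 of the 20325 in the files, and all were found by symbol in each of the 13 libraries. Peg10 was chosen by its measured counts in the knockout libraries, low at the start and rising afterwards, from earlier results of these data. Its knockout values are therefore given as a description, with no test. The 7 neighbours were picked for their position, to ask whether the low start and the rise reach beyond Peg10, and were tested.

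The cells were pre-iPSCs made from mouse embryonic fibroblasts, wild type (WT) or knockout (KO) for Kdm3b, which encodes an enzyme that removes methyl groups from lysine 9 of histone H3. They were grown in serum medium with leukemia inhibitory factor and taken on day 0, day 2 or day 10 of AA+2i treatment, meaning ascorbic acid at 50 µg/mL with CHIR-99021, an inhibitor of the kinase GSK3, and PD-0325901, an inhibitor of the kinase MEK. The cultures were split at day 4. Each of the 6 groups had 2 libraries, lettered A and B, and 1 library of wild-type V6.5 embryonic stem cells (ESCs) was sequenced beside them. For the day 0 libraries the titles give DMSO but the treatment field gives AA+2i; they were taken as cells before treatment. The ESC library carries AA+2i with a time point of 0 hours as well, which leaves its treatment open to doubt. It is not stated how Kdm3b was disrupted, whether each genotype is 1 clone, or whether A and B were separate cultures. The p-values therefore measure only the spread between these libraries, and an effect of the knockout and a difference between cell lines cannot be told apart. No untreated cells were sampled at day 2 or day 10, so treatment and time in culture cannot be told apart.

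Imprinted genes are expressed mainly from the copy inherited from a single parent. Peg10, a gene derived from a retrotransposon and needed to form the placenta, and Sgce start head to head at a shared promoter region that is DNA-methylated on the maternal copy, and both are expressed from the paternal copy. Ppp1r9a, Pon2, Pon3, Asb4, Calcr and Tfpi2, further out, have been described as expressed mainly from the maternal copy in some tissues, placenta and brain among them. Reads were not split by parental copy, so imprinting itself was not measured.

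Library totals ran from 14891294 to 26430050 expected counts. Levels are given as CPM (counts scaled to a common library size) on totals scaled by TMM, a correction for differences in library composition, and levels of different genes are compared only as TPM, which also divide by transcript length. Kdm3b stood between 148.5 and 249.2 CPM in the 6 WT libraries and between 19.04 and 65.11 CPM in the 6 KO libraries, with no overlap, and RNA from the locus was still present in KO. The 6 markers shared by pre-iPSCs and ESCs, such as Pou5f1 and Sox2, summed to 2650 to 8858 CPM in every pre-iPSC library, although Lin28a was at 0 in KO at day 0. At days 0 and 2 the B libraries held longer transcripts than the A libraries, with a mean length by reads of 3716 to 3921 bases against 2986 to 3135 bases, while the day 10 libraries lay at 3325 to 3437 bases. Fits that took the letter as a block at days 0 and 2 are given beside a result where they change its call. Changes are log2 fold changes with their standard error (SE), and a gene was called where its false discovery rate (FDR) over all tested genes was under 0.05. In bulk RNA, fewer cells with a transcript and less of it per cell cannot be told apart.

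In RefSeq's order the genes run Calcr, Tfpi2, Gngt1, Gng11, Bet1, Col1a2, Casd1, Sgce, Peg10, Ppp1r9a, Pon1, Pon3, Pon2 and Asb4, with Peg10 and Sgce next to each other. Positions of the genes in mm9, the build of the files, are not given here. RefSeq promoter windows on GRCm38.p6 (250 bases before the start to 50 after it) were on hand for 6 of the 8 genes, with none for Peg10 or Sgce. The windows of the 3 neighbours whose levels differed between the genotypes at day 0 are shown with the CpG-rich window of Ppp1r9a, which lies nearest to Peg10 on that side, because they differ widely in CpG content. CG dinucleotides, the sites that DNA methylation uses and the same on either strand, are in capitals, and the sequences read along the strand of the gene.
Ppp1r9a, chr6:4903061-4903360: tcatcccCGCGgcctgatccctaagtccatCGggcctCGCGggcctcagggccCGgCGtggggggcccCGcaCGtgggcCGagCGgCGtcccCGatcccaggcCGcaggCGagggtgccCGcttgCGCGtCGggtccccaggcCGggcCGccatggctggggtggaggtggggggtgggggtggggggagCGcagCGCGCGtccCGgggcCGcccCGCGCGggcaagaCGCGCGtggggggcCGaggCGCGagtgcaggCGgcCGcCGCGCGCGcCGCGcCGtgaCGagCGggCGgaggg
Pon3, chr6:5256184-5256483: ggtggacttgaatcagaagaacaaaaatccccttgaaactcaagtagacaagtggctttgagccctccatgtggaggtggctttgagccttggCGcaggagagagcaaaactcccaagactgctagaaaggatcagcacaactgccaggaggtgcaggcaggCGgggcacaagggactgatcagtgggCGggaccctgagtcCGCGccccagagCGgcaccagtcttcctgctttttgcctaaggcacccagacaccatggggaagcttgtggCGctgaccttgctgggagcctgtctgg
Pon2, chr6:5298291-5298590: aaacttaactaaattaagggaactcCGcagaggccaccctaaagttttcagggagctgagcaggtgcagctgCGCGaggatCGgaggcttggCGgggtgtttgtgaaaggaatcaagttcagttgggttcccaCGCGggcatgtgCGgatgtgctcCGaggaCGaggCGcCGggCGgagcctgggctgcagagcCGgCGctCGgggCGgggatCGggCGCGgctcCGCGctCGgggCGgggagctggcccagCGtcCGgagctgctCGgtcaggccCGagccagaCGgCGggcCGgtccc
Asb4, chr6:5383136-5383435: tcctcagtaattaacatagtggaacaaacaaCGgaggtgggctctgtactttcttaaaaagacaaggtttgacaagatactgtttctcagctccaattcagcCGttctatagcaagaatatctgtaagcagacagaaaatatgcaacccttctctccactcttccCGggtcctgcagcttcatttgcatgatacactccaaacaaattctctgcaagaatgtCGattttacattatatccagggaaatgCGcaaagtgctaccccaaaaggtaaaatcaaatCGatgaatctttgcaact
The Pon2 window held 31 CG, a number reached by 10.6% of the 32851 windows in the table. The Ppp1r9a window held 48 CG, reached by 1.22% of windows, and a further Ppp1r9a start had 10. Pon3 had 7 CG, the median of all windows, and the Asb4 windows had 6 (shown) and 8. Among the 3 neighbours that were lower in KO at day 0, Pon2 thus had a CpG-rich window, while the windows of Pon3 and Asb4 were at or near the median. Methylation was not measured.

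Peg10 was an abundant transcript in WT cells and ranked far lower in KO cells at day 0. In WT it stood at 552.1 (A) and 744.2 (B) CPM (day 0), 1860 and 1829 (day 2) and 806.4 and 727.2 (day 10). In KO it stood at 13.67 and 19.89 CPM (day 0), 364.8 and 408.4 (day 2) and 1492 and 1354 (day 10). WT therefore peaked at day 2, whereas KO was higher at each later day, and the genotypes did not overlap at any day. Ranked by TPM among the 20325 genes, Peg10 was gene 1106 and 548 in the WT day 0 libraries, 254 and 207 in those of WT day 2, and 9954 and 9731 in those of KO day 0. Only 14504 (A) and 14915 (B) genes had a count in the KO day 0 libraries. From the lowest, the order of groups was KO day 0, the ESC library at 348.4 CPM, KO day 2, WT day 0, WT day 10, KO day 10 and WT day 2, and of these neighbours only WT day 0 and WT day 10 overlapped.

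**Figure D1:**
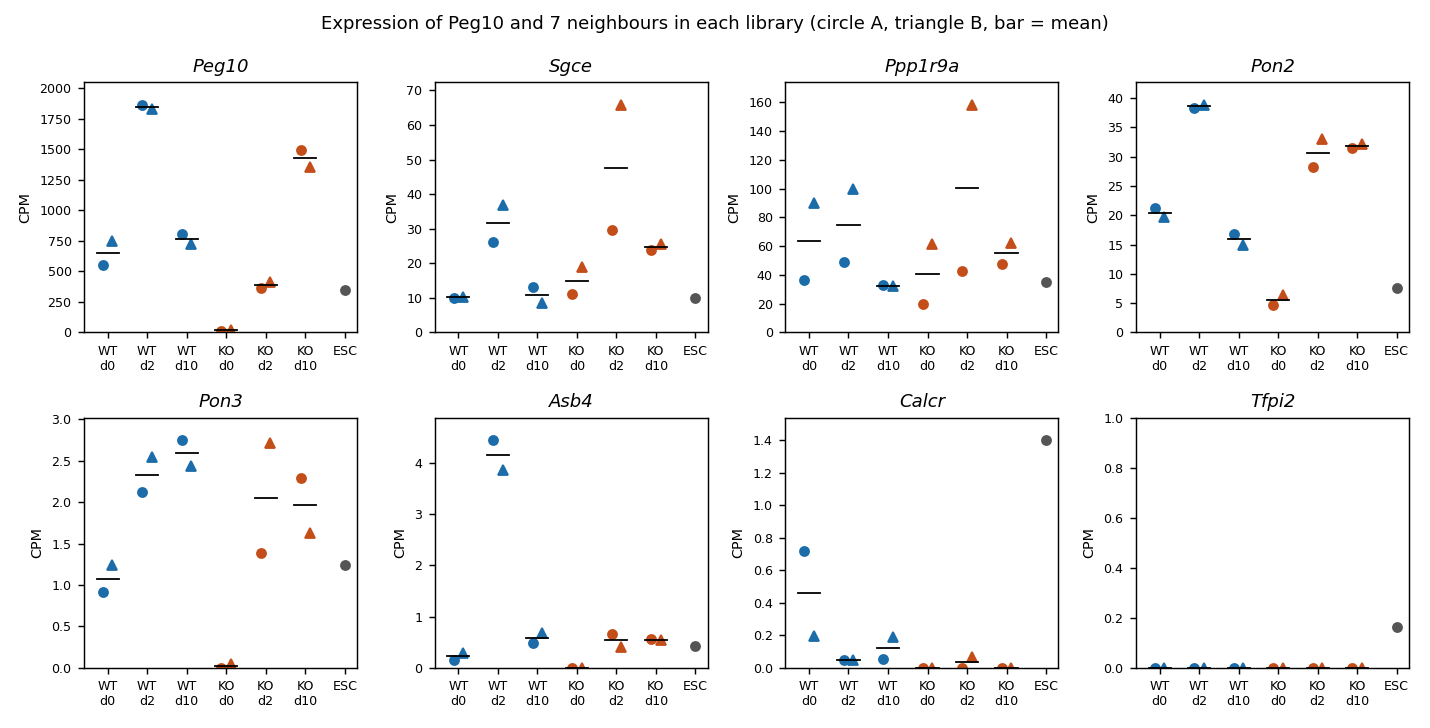
Level (CPM) of each of the 8 genes in every library, by genotype and day (d), on a linear axis from 0 that differs between panels; circles are A libraries and the single ESC library, triangles B libraries, and bars the mean of 2. Peg10, Pon2, Pon3 and Asb4 are lowest in KO at day 0, Asb4 peaks in WT at day 2 (4.437 and 3.855 CPM), and the mean of Sgce is above that of WT in KO at each day.

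The changes of Peg10 in WT, which its choice did not use, were tested with edgeR's quasi-likelihood test over all 14324 genes that passed the filter on low counts. Peg10 rose in WT from day 0 to day 2 by 1.51 on the log2 scale (SE 0.28, FDR 0.0169) and fell from day 2 to day 10 by 1.27 (SE 0.28, FDR 0.00858). WT at day 10 was not called against day 0 (0.24, SE 0.27, FDR 0.552), but was with the letters as a block at days 0 and 2 (0.39, FDR 0.028). That block sets day 10 against the A level of day 0, where Peg10 was lower in A than in B. The rise at day 2 missed the threshold without any single library of WT day 0 or day 2 (FDR 0.0686 to 0.145), and the fall missed it without either WT day 10 library (FDR 0.0534 without A, 0.0777 without B).

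For description only, the fitted log2 differences of Peg10 between KO and WT were -5.27 (SE 0.33) at day 0, -2.25 (SE 0.28) at day 2 and 0.89 (SE 0.27) at day 10. Within KO it was 4.52 higher (SE 0.31) at day 2 than at day 0, and another 1.88 higher (SE 0.28) at day 10. The gap between the genotypes thus closed and then turned. These comparisons share the KO day 0 and WT libraries.

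Sgce, the gene beside Peg10, did not share its low start in KO. It encodes epsilon-sarcoglycan, a membrane protein. In WT it stood at 10.01 and 10.34 CPM (day 0), 26.13 and 36.92 (day 2) and 12.99 and 8.364 (day 10). In KO it stood at 11.01 and 18.80 CPM (day 0), 29.58 and 65.78 (day 2) and 23.93 and 25.62 (day 10). Both KO libraries at day 0 were above both WT libraries, and at day 2 the genotypes overlapped. The log2 difference between KO and WT at day 0 was 0.55 (SE 0.41, FDR 0.618, edgeR).

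Sgce was higher at day 2 than at day 0 in both genotypes. In KO the edgeR call passed narrowly (log2 1.68, SE 0.41, FDR 0.0476) and was lost when any library except KO day 2 A was left out (FDR up to 0.3003). The log2 change was 0.944 without KO day 2 B and 2.143 without KO day 0 B. In WT a difference of the same size missed the threshold (1.63, SE 0.41, FDR 0.0585) and passed with the letters as a block (FDR 8.77e-05). The 2 genotypes' changes differed by 0.05 (SE 0.57, FDR 1). In WT Sgce then fell by 1.56 to day 10 (SE 0.41, FDR 0.021), a call lost without either WT day 10 library or WT day 2 B (FDR 0.0524 to 0.146). At day 10 KO was above WT by 1.21 (SE 0.41, FDR 0.0516), which passed with the block (FDR 0.000331).

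The level of Peg10 relative to Sgce, in TPM, set the KO day 0 and day 2 libraries apart from all others. In WT the ratio of Peg10 to Sgce was 13.71 and 17.91 (day 0), 17.69 and 12.32 (day 2) and 15.47 and 21.69 (day 10). In KO it was 0.308 and 0.263 (day 0), 3.068 and 1.544 (day 2) and 15.51 and 13.16 (day 10). It was 8.839 in the ESC library. Sgce outnumbered Peg10 only in the KO day 0 libraries, and by day 10 the KO ratio lay within the range of the 6 WT libraries (12.32 to 21.69). This is a description, since the low Peg10 level in KO was what led to its choice.

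**Figure D2:**
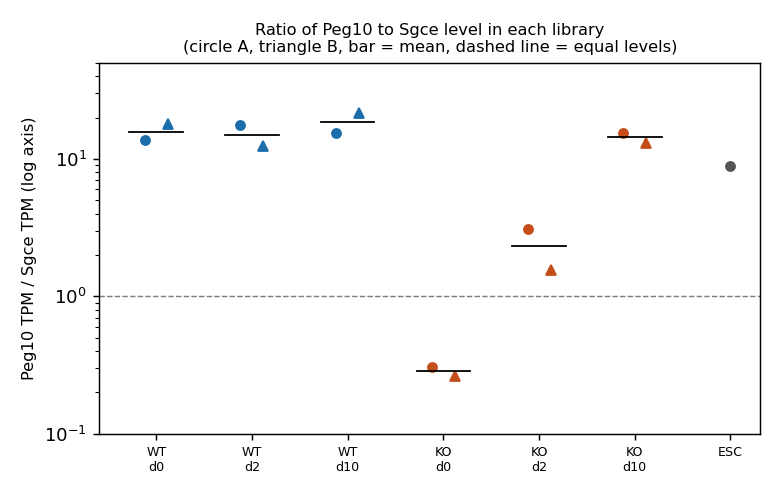
Ratio of Peg10 to Sgce level (TPM over TPM, log axis) in every library, by genotype and day; circles are A libraries and the ESC library, triangles B libraries, bars the mean of 2, and the dashed line equal levels. The ratio is 12.32 to 21.69 in the 6 WT libraries, 0.263 and 0.308 in KO at day 0, and 13.16 and 15.51 in KO at day 10.

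Ppp1r9a, on the other side of Peg10, encodes neurabin, an actin-binding scaffold for protein phosphatase 1. In WT it stood at 36.49 and 89.95 CPM (day 0), 49.04 and 99.66 (day 2) and 32.64 and 32.28 (day 10). In KO it stood at 19.86 and 61.44 CPM (day 0), 42.45 and 158.0 (day 2) and 47.36 and 62.32 (day 10). The ratio of the B to the A library was 2.03 to 3.72 at days 0 and 2 and 0.989 to 1.32 at day 10, and the transcript is the longest of the 8 (9547 bases). With that spread edgeR called no comparison of Ppp1r9a (KO against WT at day 0 -0.64, SE 0.72, FDR 0.825). With the letters as a block at days 0 and 2, KO was below WT at day 0 by 0.70 on the log2 scale (FDR 0.00612), rose by 1.24 to day 2 (FDR 7.63e-05), and at day 10 was above WT by 0.76 (FDR 0.00163). Under the same block the change to day 2 was larger in KO than in WT by 0.95 (FDR 0.0246) and the change to day 10 by 1.46 (FDR 0.000259). The block calls many more genes throughout, 4360 against 1187 of the 14324 in KO against WT at day 0.

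Pon2 and Pon3, paraoxonase genes beyond Ppp1r9a, did share the low start. The paraoxonases are enzymes that hydrolyse lactones, Pon2 inside cells and Pon3 mostly in liver and blood. Pon2 in WT stood at 21.23 and 19.65 CPM (day 0), 38.36 and 38.83 (day 2) and 16.85 and 14.93 (day 10). In KO it stood at 4.725 and 6.379 CPM (day 0), 28.24 and 33.06 (day 2) and 31.49 and 32.14 (day 10). At day 0 both KO libraries were below both WT libraries and at day 10 both were above, with no overlap at any day.

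Pon2 was lower in KO than in WT at day 0 by 1.88 on the log2 scale (SE 0.19, FDR 0.000695, edgeR). It rose in KO by 2.47 to day 2 (SE 0.19, FDR 0.000301) and was not called between day 2 and day 10 (0.05, SE 0.18, FDR 0.935). In WT it rose by 0.92 to day 2 (SE 0.18, FDR 0.0225) and fell by 1.28 to day 10 (SE 0.18, FDR 0.00122), and at day 10 KO was above WT by 1.001 (SE 0.18, FDR 0.00344). The change from day 0 to day 10 was larger in KO than in WT by 2.88 (SE 0.26, FDR 0.000501), and that to day 2 by 1.55 (SE 0.26, FDR 0.0687, or 0.000253 with the letters as a block). A fit of the groups compared alone, with few degrees of freedom, did not call Pon2 in KO against WT at day 0 (FDR 0.0694) or in KO at day 2 against day 0 (FDR 0.0839). The WT rise at day 2 was lost when any WT library but the day 10 B, or either KO day 10 library, was left out (FDR 0.051 to 0.173).

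Pon3 was nearly absent in KO cells at day 0. Its rounded counts in WT were 23 and 25 (day 0), 43 and 56 (day 2) and 52 and 39 (day 10), and in KO 0 and 1 (day 0), 27 and 41 (day 2) and 37 and 27 (day 10). The KO day 0 libraries were below every other library, and the genotypes overlapped in CPM at day 2 but not at day 10, when KO was the lower (2.294 and 1.628 against 2.745 and 2.436 CPM). The day 10 difference was not called (log2 -0.40, SE 0.42, FDR 0.527, edgeR), and the interval of its ratio from counting error alone included equal levels (0.537 to 1.046). The depth-scaled ratio of KO to WT at day 0 was 0.0231 (95% exact interval 0.000574 to 0.135, counting error only), and edgeR called it (FDR 0.00407). The KO level at day 2 was 80.3 times that at day 0 (interval 13.9 to 3218, FDR 0.00188). The change to day 10 differed between the genotypes (interaction FDR 0.0113), while that to day 2 missed the threshold (FDR 0.1) and passed with the block (FDR 0.00197). The WT level at day 10 exceeded that at day 0 by 1.27 (SE 0.43, FDR 0.0473), a call lost in 8 of the 12 fits that left out a library (FDR up to 0.236). Fitted alone, the groups compared gave an FDR of 0.0758 for Pon3 in KO against WT at day 0 and of 0.115 in KO at day 2 against day 0.

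Asb4, which encodes an adaptor of an E3 ubiquitin ligase, also began lower in KO and was lower there at day 2. Its rounded counts in WT were 4 and 6 (day 0), 90 and 85 (day 2) and 9 and 11 (day 10). In KO they were 0 and 0 (day 0), 13 and 6 (day 2) and 9 and 9 (day 10). The WT day 2 libraries were far above all others, and at day 10 the genotypes lay together. With the 0 of the KO group replaced by a floor of 3 counts in all, Asb4 was at least 3.004-fold lower in KO than in WT at day 0 (FDR 0.0227), a call lost without WT day 0 B, KO day 0 A or KO day 0 B (FDR 0.0973 to 0.101).

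At day 2 the KO level of Asb4 was 0.133 times that of WT (95% exact interval 0.0782 to 0.214, counting error only, FDR 0.00325, edgeR). It was at least 7.48-fold above KO day 0 at day 2 (FDR 0.00643) and at day 10 (FDR 0.00344). In WT it rose by 4.17 on the log2 scale at day 2 (SE 0.43, FDR 0.00217) and fell by 2.83 to day 10 (SE 0.39, FDR 0.0015). The interaction at day 10 passed (FDR 0.0292) and was lost in 9 of the 12 fits that left out a library (FDR up to 0.0888). Its change to day 2 was not shown to differ between genotypes (2.22, SE 1.07, FDR 1).

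Calcr, the calcitonin receptor gene, and Tfpi2, a gene for a serine protease inhibitor, did not pass the filter on low counts and were not tested. Calcr counts in WT were 18 and 4 (day 0), 1 and 1 (day 2) and 1 and 3 (day 10). In KO they were 0 and 0 (day 0), 0 and 1 (day 2) and 0 and 0 (day 10), with 26 in the ESC library. Against the same floor Calcr was at least 6.61-fold lower in KO than in WT at day 0, although the WT value rests mostly on library A. Tfpi2 had 0 counts in all 12 pre-iPSC libraries and 3 in the ESC library, so no difference was detectable at this depth. Pon1, between Ppp1r9a and Pon3, had 0 counts in all 13 libraries.

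Along the chromosome, the 3 neighbours called lower in KO at day 0 lay together on the Ppp1r9a side of Peg10, and the genes on either side of Peg10 were not called. Of the 5 neighbours tested, 3 (Pon2, Pon3 and Asb4) were lower in KO than in WT at day 0 and 0 higher, where 5.59% of all tested genes were lower and 8.29% were called in either direction. The median log2 difference was -1.88 over these 5 and 0.004 over all genes. Sgce and Ppp1r9a were the others, and Ppp1r9a was lower too with the letters as a block. Because a gene that passed the filter only through its WT libraries had to differ, this count and that of the region below describe the genes and do not support more. Of the region's other genes from Samd9l to Asns, 12 of 18 passed the filter, and 0 were higher and 3 lower in KO at day 0, with a median of -0.34, but 2 of the 3 had at most 2 counts in any KO library and so passed the filter only through WT. One, Samd9l, a gene of the interferon response, stood at 39.8 CPM in WT and 2.04 CPM in KO (log2 -4.29, SE 0.32, FDR 0.000188). Col1a2, a collagen gene, had 47 and 75 counts in WT and 0 and 0 in KO, which makes it at least 36.6-fold lower. The other, Gng11, named after its values were seen since its mean is under 1 CPM, had 17 counts over the WT libraries and 0 over the KO libraries at day 0, at least 5.11-fold lower, and 0 in all 6 KO libraries. Casd1, which adjoins Sgce, was not called at day 0 (-0.27, SE 0.20, FDR 0.606).

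**Figure D3:**
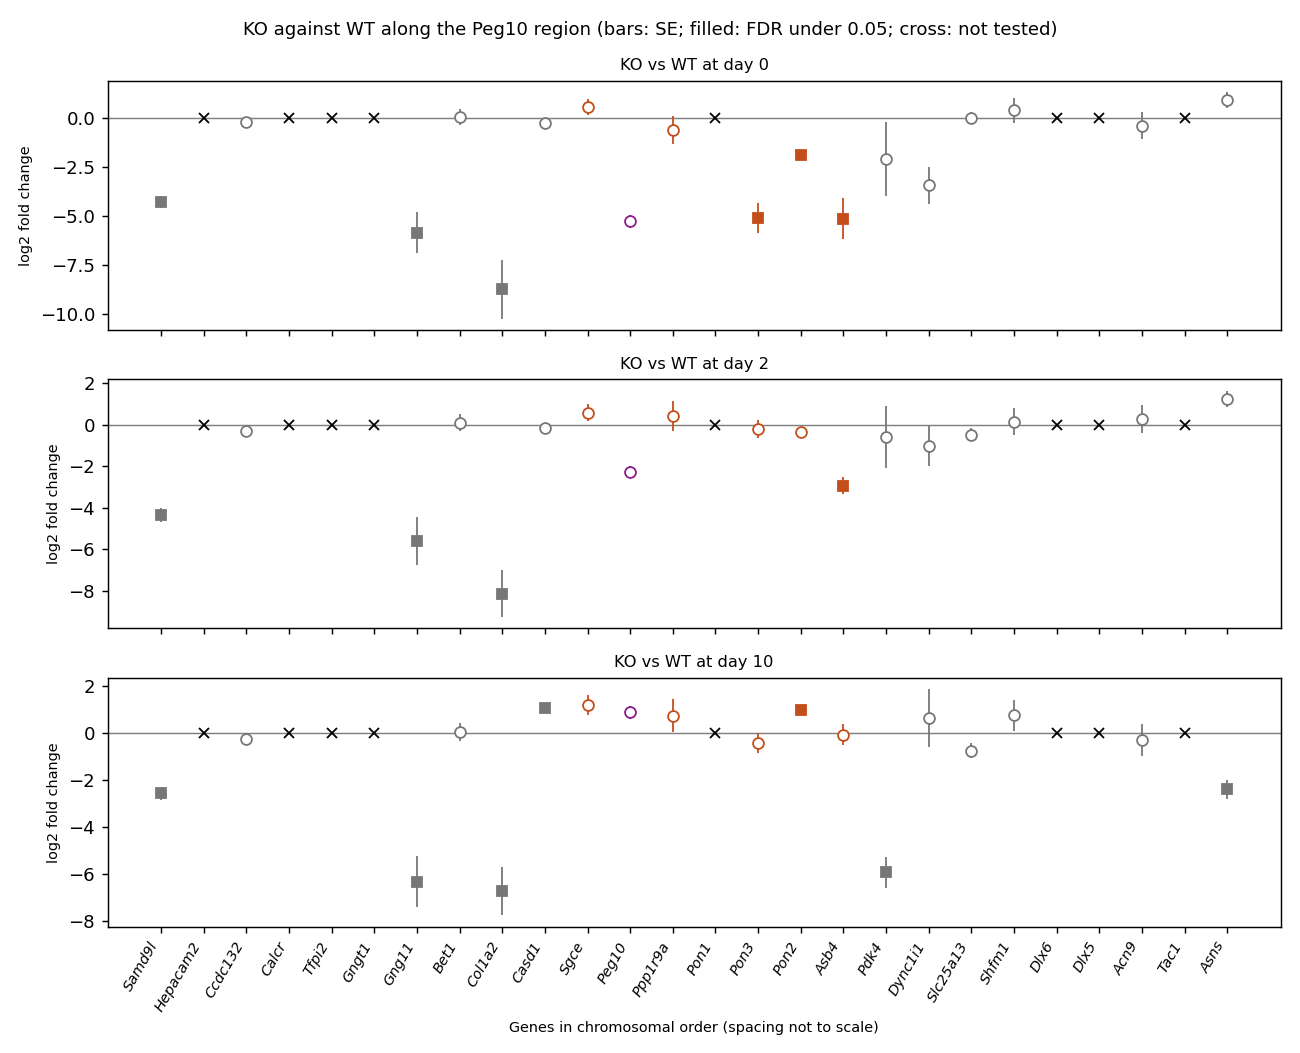
Log2 fold change of KO over WT (vertical axis) at day 0, day 2 and day 10 for 26 genes in chromosomal order, spacing not to scale; bars are standard errors, orange marks neighbours, purple Peg10 (no test), grey other genes, filled squares FDR under 0.05, and crosses genes not tested. At day 0 Peg10, Pon3, Pon2 and Asb4 lie below 0 while Sgce lies at 0.55.

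At day 2 the only neighbour called between the genotypes was Asb4, lower in KO, where 10.5% of tested genes were called (6.16% lower). At day 10 it was Pon2, higher in KO, where 32.3% were called (12.4% higher). With the letters as a block 3 neighbours were called at day 10, where 9136 of the 14324 tested genes were. The median log2 difference over the 5 neighbours was -0.20 at day 2 and 0.76 at day 10, against 0.022 and -0.016 over all genes. Of the tested neighbours, only Asb4 was thus called lower in KO at day 2 as well as at day 0. Its KO level had by then left the low start (pooled counts of 0 at day 0, 19 at day 2 and 18 at day 10). In WT it was at its peak at day 2 (10, 175 and 20).

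In KO, 4 of the 5 tested neighbours rose from day 0 to day 2 (Sgce, Pon2, Pon3 and Asb4) and 0 fell, where 4.02% of tested genes rose and 6.39% were called in either direction. The median was 2.47 over the 5 and 0.011 over all genes. In WT 3 of the 6 tested members rose over the same days (Peg10, Pon2 and Asb4) and 0 fell, where 3.32% of tested genes rose and 5.30% were called in either direction. With the letters as a block 5 of 5 were called in KO, with Ppp1r9a, and 5 of 6 in WT, with Sgce and Pon3 (1.111, FDR 0.0125). The block called 4225 of the 14324 tested genes in KO and 4318 in WT over these days. Casd1, next to Sgce, rose too, in KO from 25.17 and 31.49 CPM to 45.85 and 57.44 CPM (log2 0.87, SE 0.20, FDR 0.0332), and in WT by an amount that missed the threshold (0.77, SE 0.20, FDR 0.0585). Of the 12 other tested genes of the region it was the only one called in KO, and 0 were called in WT.

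**Figure D4:**
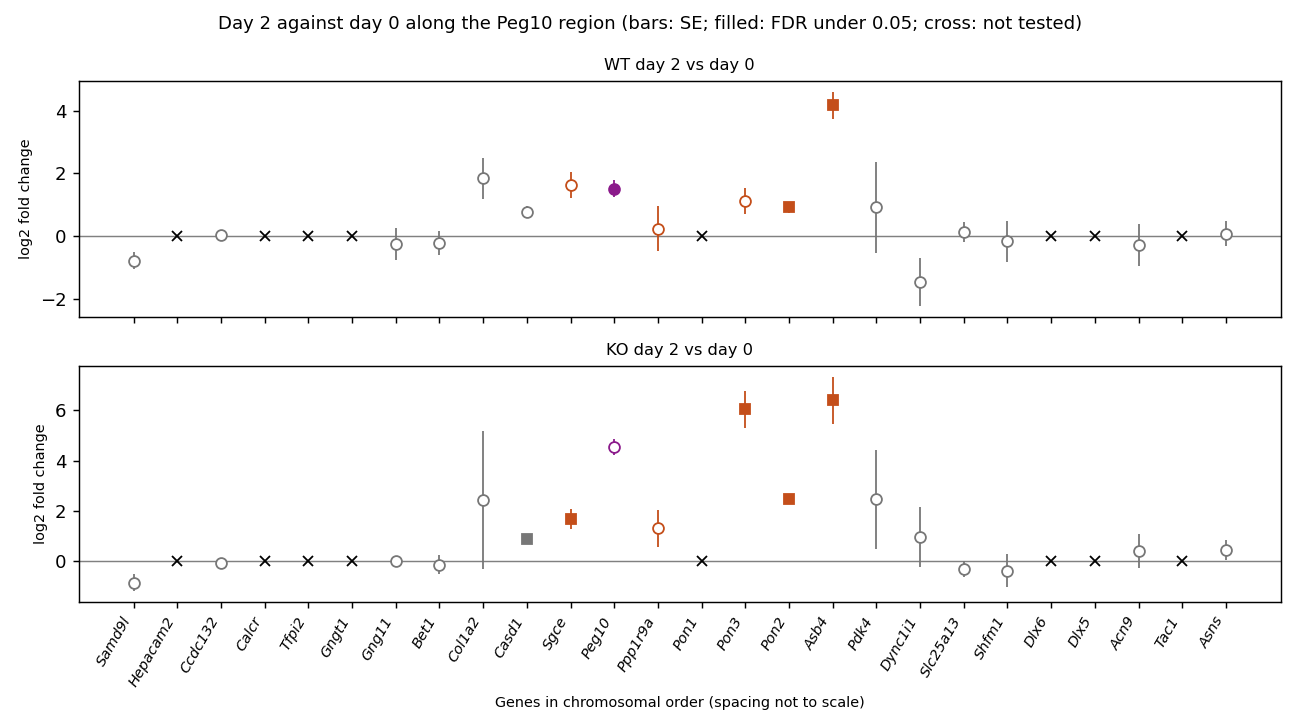
Log2 fold change of day 2 over day 0 in WT (top) and KO (bottom) for 26 genes in chromosomal order, spacing not to scale, with the same marks as in the plot of KO over WT. Casd1, Sgce, Pon3, Pon2 and Asb4 lie above 0 in both genotypes, and Pon3 stands at 1.116 in WT and 6.038 in KO.

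From day 0 to day 10, 3 of the 5 tested neighbours rose in KO (Pon2, Pon3 and Asb4) and 0 fell, where 9.93% of tested genes rose (15.1% called), and 1 of 6 members rose in WT (Pon3), where 21.0% rose (34.1% called). With the letters as a block at days 0 and 2, Sgce (1.102, FDR 0.00142) and Ppp1r9a (1.369, FDR 4.02e-05) were called higher in KO as well, which makes 5 of 5, and Peg10 in WT, which makes 2 of 6. The block called 7099 of the 14324 tested genes in KO and 9651 in WT in these comparisons. That block has no term for day 10, so it sets day 10 against the A level of day 0. The added calls rest on that reference. For Ppp1r9a in KO the log2 change was 1.501 with only A libraries at days 0 and 2 and -0.168 with only B libraries. From day 2 to day 10, 4 of 6 members fell in WT (Peg10, Sgce, Pon2 and Asb4), where 11.2% of genes fell (29.5% called). In KO 0 of 5 neighbours were called between those days, where 3.10% were; 1, Sgce, had an unadjusted p under 0.05, and DESeq2 called 0. The interaction at day 10 called 3 of 5 (Pon2, Pon3 and Asb4, each with the larger rise in KO), where 12.6% were called (6.35% in that direction). The block added Ppp1r9a, for 4 of 5, where it called 6388 of the 14324 tested genes. The interaction at day 2 called 0 of 5, where 0.195% were called; 2, Pon2 and Pon3, had an unadjusted p under 0.05, and DESeq2 called 1, Pon2. The block called 3, Ppp1r9a, Pon2 and Pon3, where it called 1109 of the 14324 tested genes. Day 10 libraries do not share the letter effect of days 0 and 2, so treatment and library set cannot be told apart in comparisons with day 10.

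Markers of fibroblasts, the cells of origin, summed to less in KO than in WT at day 0. They did so at days 2 and 10 too. The summed level of 10 fibroblast markers was 10.1 to 19.7 CPM in WT at day 0 and 0.097 to 0.197 CPM in KO, where 8 of the 10, Col1a2, Col3a1 and Thy1 among them, were at 0 in both libraries. It was 19.7 to 54.4 CPM in WT and 2.37 to 8.74 CPM in KO at day 2, 107.3 to 190.7 and 3.74 to 6.20 CPM at day 10, and 326 CPM in the ESC library. Lum was at 0 in all 6 pre-iPSC groups. The part of these markers in the lower Pon2, Pon3, Asb4, Col1a2 and Gng11 levels of KO at day 0 was not tested. Part of the pluripotency markers were lower in KO at day 0 as well. Of 7 naive ESC markers, 3 were lower in KO than in WT at day 0 (Nanog, Dppa5a and Tdgf1; median log2 difference of the 7 -1.67), 6 at day 2 and 6 at day 10, and 0 were higher. Their summed levels overlapped at day 0 (1057 to 2101 CPM in WT and 983 to 2533 CPM in KO), and ran from 945 to 1488 and 518 to 1206 CPM at day 2, and 3702 to 4224 and 906 to 989 CPM at day 10. These sums do not follow most of the markers. In KO, 6 of the 7 rose from day 0 to day 10 and 0 fell (median log2 change 4.265), although the sum was not higher. Of all tested genes 9.93% rose there (15.1% called). None of the 7 was at 0 in both libraries of a group. Of the 6 markers shared by pre-iPSCs and ESCs, 3 were lower at day 0 (Lin28a, Cdh1 and Epcam; median of the 6 -1.43), 2 at day 2 and 4 at day 10, and 0 were higher. Of all tested genes, 8.29% were called in either direction at day 0 (5.59% lower) and 10.5% at day 2 (6.16% lower). At day 10, 32.3% were called (12.4% higher and the rest lower). The part of these pluripotency markers in the members' levels was not tested. Trophectoderm markers were low beside Peg10, a placental gene: 6 markers summed to 5.15 to 6.45 CPM in WT and 1.46 to 1.53 CPM in KO at day 0. There Cdx2, Elf5 and Hand1 were at 0 in KO, and Elf5 was at 0 in WT too. Their part was not tested either. The sum of 4 endothelial markers went the other way at day 0, with 62.4 to 94.0 CPM in KO and 30.5 to 36.8 CPM in WT. Of the 3 tested, however, only 1 was higher in KO and 0 were lower (median log2 difference 0.135). Cdh5 and Emcn were at 0 in KO at day 0, and Emcn was at 0 in WT too. The genotypes overlapped there for 6 neural markers (131.8 to 237.9 CPM in KO, 209.1 to 325.8 in WT). They also overlapped for 4 immune markers (68.0 to 176.0 CPM in KO, 75.5 to 138.9 in WT).

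Peg10 belongs to a family of genes derived from sushi-ichi retrotransposons, and 10 others were listed. Of the 6 that passed the filter, 1 was lower in KO than in WT at day 0, where 5.59% of all tested genes were. At day 2, 3 were lower (6.16% of all tested genes), and at day 10, 3 were higher (12.4%). The shares of all tested genes called in either direction were 8.29%, 10.5% and 32.3% at these days. The lower one at day 0 was Cxx1c, with 1 rounded count in the 2 KO libraries and 30 in WT at day 0 (ratio 0.037, 95% exact interval 0.000907 to 0.222, counting error only, FDR 0.00333, edgeR). It then had 57 counts in KO and 908 in WT at day 2, and 169 and 80 at day 10. Cxx1a and Cxx1b were lower in KO at day 2 (log2 -1.42, SE 0.27, FDR 0.0112, and -1.57, SE 0.30, FDR 0.0105) and higher at day 10 (0.90, SE 0.27, FDR 0.0326, and 1.59, SE 0.30, FDR 0.00393). The 3 Cxx1 genes are near-identical copies, so the split of reads between them is uncertain.

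Imprinted genes elsewhere in the genome did not differ as one between the genotypes at day 0. Of 20 paternally expressed genes tested, 1 was higher in KO at day 0 and 3 were lower (Mest, Plagl1 and Slc38a4), and the median was -0.13. Of all tested genes, 8.29% were called in either direction there and 5.59% were lower. Mest, a gene expressed in mesoderm, stood at 21.4 CPM in WT and 4.93 CPM in KO (log2 -2.12, SE 0.18, FDR 0.000322). Slc38a4, an amino acid transporter gene, was lower by 6.15 (SE 0.54, FDR 0.000372) and Plagl1, a zinc finger gene, by 4.45 (SE 0.67, FDR 0.00425). Of 16 maternally expressed genes tested, 0 were higher and 1, Phactr2, was lower (-2.22, SE 0.28, FDR 0.00187). At day 10 both lists leaned lower in KO. There 9 of the 20 paternally expressed genes were lower and 2 higher (median -0.82). Of the 16 maternally expressed genes, 6 were lower and 2 higher (median -0.61). Over all tested genes at day 10, the median was -0.016 and 32.3% were called in either direction. These were 4628 of 14324 genes, 1782 of them higher (12.4%) and the rest lower.

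Over the 12 pre-iPSC libraries, Pearson's r of log2 CPM with Peg10 was 0.904 for Pon2, 0.934 for Pon3, 0.814 for Asb4, 0.331 for Ppp1r9a and 0.236 for Sgce. The share of tested genes with a lower r was 99.6%, 99.8%, 98%, 76.8% and 69.7%. These points share libraries, depth and the KO day 0 samples, so the values describe and carry no test. Among 10016 named genes averaging 5 CPM or more, those most like Peg10 by this measure were Armcx2 (0.973), Mtap2 (0.969), Gulp1 (0.968), Prmt2 (0.959), Armcx3 (0.959), Sepp1 (0.958), Esrp1 (0.954) and Saa3 (0.954). Armcx2 stood at 16.1 CPM in WT and 0.883 CPM in KO at day 0, 32.6 and 17 CPM at day 2, and 15.4 and 19.3 CPM at day 10. Mtap2, which encodes the microtubule-associated protein MAP2, stood at 26.4 and 2.16 CPM at day 0.

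By length-scaled level, Peg10 was the highest of the 8 in every group but one. In WT at day 0 the mean TPM was 201 ± 93.0 (SD, n = 2) for Peg10, 22.6 ± 4.80 for Pon2, 14.4 ± 11.5 for Ppp1r9a, 12.4 ± 3.56 for Sgce and 1.28 ± 0.59 for Pon3. In KO at day 0 Sgce came first with 18.1 ± 10.96 TPM, followed by Ppp1r9a with 8.93 ± 8.05, Pon2 with 6.04 ± 2.80 and Peg10 with 4.99 ± 2.55. Ppp1r9a overlapped the other 3 between libraries there and Pon2 overlapped Peg10, while both Sgce libraries (10.35 and 25.85 TPM) lay above those of Pon2 and Peg10. Asb4 and Calcr were under 1 TPM in KO and WT at day 0.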

How the data were processed

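RNA from 12 pre-iPSC libraries and 1 ESC library was sequenced single-end, per the labels' protocols. The submitters' processing notes name Bowtie2, RSEM and mm9 (versions not given in the sources used here). The deposited values used were RSEM expected counts, which share reads between transcripts, and TPM as deposited by the authors. Reads from overlapping genes cannot be told apart, since no strand setting is stated.

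Expected counts were rounded and tested in 1 fit over the 6 pre-iPSC groups using edgeR 4.0.16 in R 4.3.3 (quasi-likelihood), with filterByExpr (14324 genes), TMM factors and contrasts, calling genes at a false discovery rate (FDR, Benjamini-Hochberg) under 0.05. The fit had 6 residual degrees of freedom and a common biological coefficient of variation of 0.266. Standard errors were taken from the fold change and its F statistic. Log2 CPM used a prior count of 2. The ESC library entered no test. The procedure was tested on simulated data with no letter effect. Changes were planted only in genes with higher mean levels than Pon3 and Asb4, so genes that low and the letter effect were not covered.

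All 8 members are named, with list genes that were called (up to 3 per comparison, mean of at least 1 CPM) and the 8 genes most correlated with Peg10. The members, lists and tests were chosen with earlier results of these data known. Cdk6 was dropped from the list of the region because RefSeq places it on chromosome 5. Replicate letters were checked as pairs by the correlation of A minus B between groups, which was 0.741 to 0.812 among the 4 groups of days 0 and 2 and -0.061 to 0.049 with or between the day 10 groups. The letters thus pair days 0 and 2 only, and that block is given where it changes a call. It has no term for the day 10 libraries, so within a genotype it sets day 10 against the A level of the earlier days. Other alternatives were RLE size factors, DESeq2 1.42.0, no filter, the block at all days, the compared groups alone and leaving out each library; a length correction and fits with 1 letter at days 0 and 2 were added after seeing the data.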

Additional observations from a re-analysis of the deposited data

Results flagged for a closer look

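The change from day 0 to day 10 differed between KO and WT, by the interaction test of edgeR, for 3 neighbours of Peg10. The difference in log2 change was 2.88 for Pon2 (FDR 0.000501), 4.72 for Pon3 (FDR 0.0113) and 5.08 for Asb4 (FDR 0.0292), each with the larger rise in KO. For Pon3 and Asb4 the fitted sizes rest on KO day 0 groups with 1 and 0 counts and are no bounds.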

How the results depend on the processing

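Counts of members called that moved by over 1.5 times were as follows, each beside the value of the fit described above. With the replicate letters as a block at days 0 and 2 only, the counts were 5 in WT at day 2 against day 0 (3), 2 in WT at day 10 against day 0 (1), 5 in KO at day 10 against day 0 (3), 3 in KO against WT at day 10 (1) and 3 for the interaction at day 2 (0). Within a genotype, its comparisons with day 10 take the earlier day at its A level. That block calls more genes in general: 4318 against 759 in WT at day 2 against day 0, 4225 against 915 in KO at day 2 against day 0, 4360 against 1187 in KO against WT at day 0, 5252 against 1498 at day 2, 9136 against 4628 at day 10, 1109 against 28 and 6388 against 1798 for the interactions at days 2 and 10, and 9651 against 4889, 9182 against 4227, 7099 against 2165 and 4895 against 444 for day 10 against day 0 and day 2 in WT and then in KO. With 1 letter at days 0 and 2, all comparisons called 1.63 to 15 times as many genes. The block changed no call of a member other than those given beside the results. With the block at all days the counts were 2 in KO against WT at day 10 and 1 for the interaction at day 2, and DESeq2 gave the same numbers, 2 and 1; both called 4 in WT at day 2 against day 0. Over all genes that block called 1433 in WT and 1478 in KO at day 2 against day 0, 3284 and 1152 in KO at day 10 against day 0 and day 2, 1792 and 2293 between the genotypes at days 0 and 2, and 91 and 2942 for the interactions. DESeq2 called 1455 genes in WT and 1535 in KO at day 2 against day 0, 1792 in KO against WT at day 0, 1341 against 444 in KO at day 10 against day 2, and 223 and 2746 for the interactions. The compared groups alone gave 1 in WT and 0 in KO at day 2 against day 0, 0 in KO against WT at each of days 0 and 2, and 3 at day 10. At an unadjusted p under 0.05 the counts of 0 were 3, 2 and 1 by edgeR, and DESeq2 called 4, 3 and 1 there. That fit has fewer libraries to estimate the spread and called 119, 0, 141, 79 and 8554 genes in these comparisons, with 1042 in KO at day 10 against day 0 and 0 against day 2 and for the interaction at day 2. At an unadjusted p under 0.05 the genes were 1199 in KO at day 2 against day 0, 1382 in KO at day 10 against day 2 and 708 for that interaction. The length correction called 779 genes in KO at day 10 against day 2 and 73 for the interaction at day 2. With no filter on low counts, and with the length correction, 0 members were called in WT at day 10 against day 0 (2 at an unadjusted p under 0.05, 1 by DESeq2). With only A libraries at days 0 and 2 the counts were 4 in WT and 5 in KO at day 10 against day 0, 3 in KO against WT at day 10 and 1 for the interaction at day 2. With only B libraries they were 2 in WT at day 10 against day 0, 2 in KO at day 10 against day 2, and 3 between the genotypes at each of days 2 and 10. Over the fits that left out a library, the counts ran from 1 to 4 in WT at day 2 against day 0, 0 to 1 in WT at day 10 against day 0, 2 to 4 in WT at day 10 against day 2, 3 to 4 in KO at day 2 against day 0 (3 in 11 of the 12), 2 to 3 in KO against WT at day 0 and for the interaction at day 10, and 1 to 2 in KO against WT at day 10. Over all genes, leaving out a library gave 547 to 1232 calls in KO against WT at day 0, 453 to 753 in KO at day 2 against day 0, 193 to 775 in WT at day 2 against day 0, 3000 to 5349 and 2304 to 4655 in WT at day 10 against day 0 and day 2, 1005 to 2267 and 112 to 373 in KO at day 10 against day 0 and day 2, 647 to 1458 and 2620 to 5009 between the genotypes at days 2 and 10, and 0 to 14 and 925 to 1975 for the interactions.

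Signs turned only for values that were not called. In KO at day 10 against day 2, the log2 value turned under the block at days 0 and 2 for Ppp1r9a (0.125), Pon3 (0.267) and Asb4 (-0.066), with only A libraries for the same genes (0.397, 0.521 and -0.252), and with only B libraries for Pon2 (-0.051). Leaving out a library gave ranges of -1.528 to 0.416 for Ppp1r9a, -0.059 to 0.219 for Pon2, -0.470 to 0.543 for Pon3 and -0.232 to 0.462 for Asb4 there. Ppp1r9a also turned in KO at day 10 against day 0 with only B libraries (-0.168; -0.171 to 1.509 leaving out a library), in KO against WT at day 2 with only A libraries (-0.230; -0.856 to 1.091), and, leaving out a library, in KO against WT at day 0 (-1.718 to 0.198), in WT at day 2 (-0.393 to 1.064) and in the interaction at day 2 (-0.222 to 2.136). Pon3 turned with only B libraries in WT at day 10 against day 2 (-0.019; -0.009 to 0.290) and at day 2 between the genotypes (0.072; -0.786 to 0.224). Sgce turned with only B libraries in the interaction at day 2 (-0.050; -0.691 to 0.509) and, leaving out a library, between the genotypes at day 2 (-0.136 to 1.066) and in WT at day 10 against day 0 (-0.305 to 0.349). Asb4 ran from -0.286 to 0.212 in KO against WT at day 10. Apart from the compared groups alone, where fewer libraries set the spread, the causes were not tested. Pon2 and Pon3 were called lower in KO at day 0 and higher at day 2 in KO in all 12 fits that left out a library. Asb4, Pon3 and Calcr rest on few counts.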
